A study of Homo sapiens and Mus musculus with 99 samples.

Results

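The genes described here supply amino acids and charge transfer RNAs. They are 36 human genes found by symbol among the 57820 gene rows of 6 human count tables, each with exactly 1 row. By role they comprise 6 amino acid transporters, 8 enzymes of amino acid synthesis, 3 enzymes of mitochondrial one-carbon metabolism, 17 cytosolic tRNA synthetases, the leucine sensor SESN2 and the lipoprotein receptor VLDLR. All 36 passed the filter on low counts in each of the 6 experiments.

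RNA was sequenced from NCI-H1437 and NCI-H292, established epithelial lines of human non-small cell lung cancer grown in RPMI medium with 10% serum, 4 h after treatment. In NCI-H1437, experiment H1437-1 compared ALT with Tra, ALT alone and DPBS. H1437-2 compared Aeg-S, Aeg-L, both proteins joined (Aeg-S/L), Aeg-S/L with Tra, and DPBS. H1437-3 compared Aeg-S/L with BAPTA-AM, Aeg-S/L with EGTA, Aeg-S/L alone and DPBS. H1437-4 compared aegs KO ALT, aegl KO ALT, WT ALT and DPBS. In NCI-H292, H292-1 held the 4 groups of H1437-4 and H292-2 the 4 groups of H1437-3. ALT is an extract of the mould Alternaria alternata, Aeg-S and Aeg-L are its pore-forming proteins, and the KO extracts come from fungus without the aegs or the aegl gene. Tra is called a MEK inhibitor in the name of a deposited table, BAPTA-AM and EGTA are calcium chelators, and DPBS is the buffer used as mock treatment. Groups held 2 libraries, or 3 in H1437-1. In H292-2 the chelator column names omit Aeg-S/L for BAPTA-AM, and the name of that table gives ALT where the labels give Aeg-S/L.

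When an amino acid runs short, uncharged tRNA activates the kinase GCN2, which phosphorylates the initiation factor eIF2alpha. General translation then falls while the messenger RNA of the transcription factor ATF4 is translated better, and other eIF2alpha kinases feed into the same route under other stresses. ATF4 binds with a C/EBP partner to a composite element in many genes of amino acid uptake and synthesis and of tRNA charging, whose messenger RNAs classically rise together.

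The composite element reads TGATGNAA, N being any base. It was searched on both strands of RefSeq promoter windows, which run from 250 bases before to 50 bases after a gene start (GRCh38.p14, whereas the count tables use hg19). A window was at hand for 28 of the 36 genes. The motif occurred in 11 of these 28 (39.3%), against 3.62% of 35116 windows of all genes and 4.46% of 27305 genes with any window. The 36 genes were chosen as targets of amino acid and ATF4 control. A higher share of this element was thus built into the choice and is not a result of these data. The E-box CACGTG, the MYC site, occurred in 4 of 28 genes (14.3%), against 7.26% of all windows and 8.77% of genes with any window. A match is a run of letters, not a shown binding site. The windows below are those of the 6 genes with the motif that fell in both NCI-H292 experiments, under WT ALT and under Aeg-S/L. Each is given 5′ to 3′ on the gene's strand, with capitals marking the motif or its reverse complement. They lie at chr7:97872443-97872502 (ASNS, minus strand), chr2:64989366-64989425 (SLC1A4, plus), chr16:70289660-70289719 (AARS1, minus), chr11:3057392-3057451 (CARS1, minus), chr7:30594819-30594878 (GARS1, plus) and chr5:33440941-33441000 (TARS1, plus).
ASNS: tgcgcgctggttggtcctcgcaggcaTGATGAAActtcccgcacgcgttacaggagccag
SLC1A4: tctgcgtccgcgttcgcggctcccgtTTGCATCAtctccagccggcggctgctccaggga
AARS1: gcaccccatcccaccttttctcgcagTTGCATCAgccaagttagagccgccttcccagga
CARS1: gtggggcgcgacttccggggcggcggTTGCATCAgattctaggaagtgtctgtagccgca
GARS1: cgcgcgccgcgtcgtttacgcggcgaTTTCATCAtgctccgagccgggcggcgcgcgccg
TARS1: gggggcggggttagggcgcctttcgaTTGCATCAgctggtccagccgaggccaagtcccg
The motif began 187 bases before the gene start in AARS1, 68 before it in ASNS, 33 before it in GARS1, 7 before it in SLC1A4 and 2 before it in CARS1. In TARS1 it began at base 3 of the gene. The windows of SLC38A2, SESN2 and CTH, the genes that rose most widely, held no such letters. The amino acid response element of SLC38A2 is known to lie in its first intron, outside the window at chr12:46372724-46373023 (minus strand), whose 300 bases are shown for comparison.
SLC38A2: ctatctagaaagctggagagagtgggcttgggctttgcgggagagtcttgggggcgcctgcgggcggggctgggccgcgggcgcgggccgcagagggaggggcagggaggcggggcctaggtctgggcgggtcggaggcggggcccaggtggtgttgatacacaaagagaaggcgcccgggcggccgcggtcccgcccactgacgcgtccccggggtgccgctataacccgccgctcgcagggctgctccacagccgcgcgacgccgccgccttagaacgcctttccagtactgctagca

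The 51 libraries in 24 groups held 32425310 to 53172930 counted fragments each, with 0.19% to 5.66% of counts on mitochondrial genes. The epithelial markers EPCAM (228 to 532 CPM, counts scaled to library size) and KRT8 (984 to 2596 CPM) were high in every library, while CD68 reached at most 0.0284 CPM, COL3A1 0.0601 CPM and PTPRC 0.207 CPM. Another fibroblast gene, COL1A1, lay at 54.3 to 226 CPM in NCI-H1437 and 18.7 to 51.5 CPM in NCI-H292. Spread between replicates differed: the common biological coefficient of variation was 0.0734 in H292-2, 0.0792 in H1437-3 and 0.0797 in H1437-4, against 0.151 in H292-1, 0.203 in H1437-2 and 0.282 in H1437-1. In H1437-1, DPBS replicate 1 and ALT+Tra replicate 3 stood apart from their groups, so values without them are given below. Levels are CPM after TMM scaling, and changes are log2 ratios ± SE from edgeR's quasi-likelihood test, called at an adjusted p (Benjamini-Hochberg, over all genes) under 0.05. Counts are relative within a library, so a gene's change per cell and a change in total RNA per cell, or in the cells that survived, cannot be told apart.

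In DPBS, levels per length (FPKM, which divides CPM by gene length) spanned a wide range. SLC7A5, the leucine carrier LAT1, was the highest of the 36 genes, with a median of 544 FPKM over 9 NCI-H1437 libraries and 2241 FPKM over 4 NCI-H292 libraries. Its partner SLC3A2 was second, at 179 and 468 FPKM. The VARS1 row had the lowest values, 0.0451 and 0.108 FPKM, and whether it takes up all reads of that gene was not tested. The lines' medians lay far apart for CBS, at 0.781 FPKM in NCI-H292 and 23.4 FPKM in NCI-H1437, and for ALDH1L2, at 0.31 and 3.94 FPKM. PYCR1 had 8.06 FPKM in NCI-H292 and 90.4 FPKM in NCI-H1437, and TARS1 had 92.1 and 23.2 FPKM. These lines were sequenced in separate experiments, so line and experiment cannot be told apart in such levels.

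The first question was what ALT and the joined proteins did to these genes in each line. A few genes rose strongly in both lines, above all the transporter SLC38A2, while most of the others fell or did not pass the test, and the falls were most numerous under Aeg-S/L in NCI-H292. Under Aeg-S/L in H292-2, 6 genes rose and 18 fell, where 22.1% of all tested genes rose and 21.1% fell. Under WT ALT in H292-1, 4 rose and 10 fell (11.6% and 11.3% of all genes). In NCI-H1437, 4 rose and 6 fell under WT ALT in H1437-4 (15.8% and 17.1%), 5 rose and 3 fell under Aeg-S/L in H1437-3 (15.4% and 15.8%), and 4 rose and 1 fell in H1437-2 (3.63% and 3.1%). The H1437-2 count includes VARS1, a call that 1 library made, and became 11 rises and 11 falls when only Aeg-S/L and DPBS were fitted, with 7031 of all genes called. Neither direction had a call under ALT in H1437-1 (3.59% and 1.13%), where 4 genes had an unadjusted p under 0.05 and DESeq2 called 1.

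The median log2 change of the 36 genes was -0.24 in H292-2 and -0.20 in H292-1, against -0.01 for all tested genes in both. In H1437-4 it was -0.02 and in H1437-3 0.01, against -0.01 and 0.01 for all genes. Over the 6 stimulus comparisons 8 genes had rises only, 18 falls only, 1 (MARS1) both, and 9 no call. The same tally over all genes was not made, so these numbers are not read as particular to the 36 genes.

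**Figure D1:**
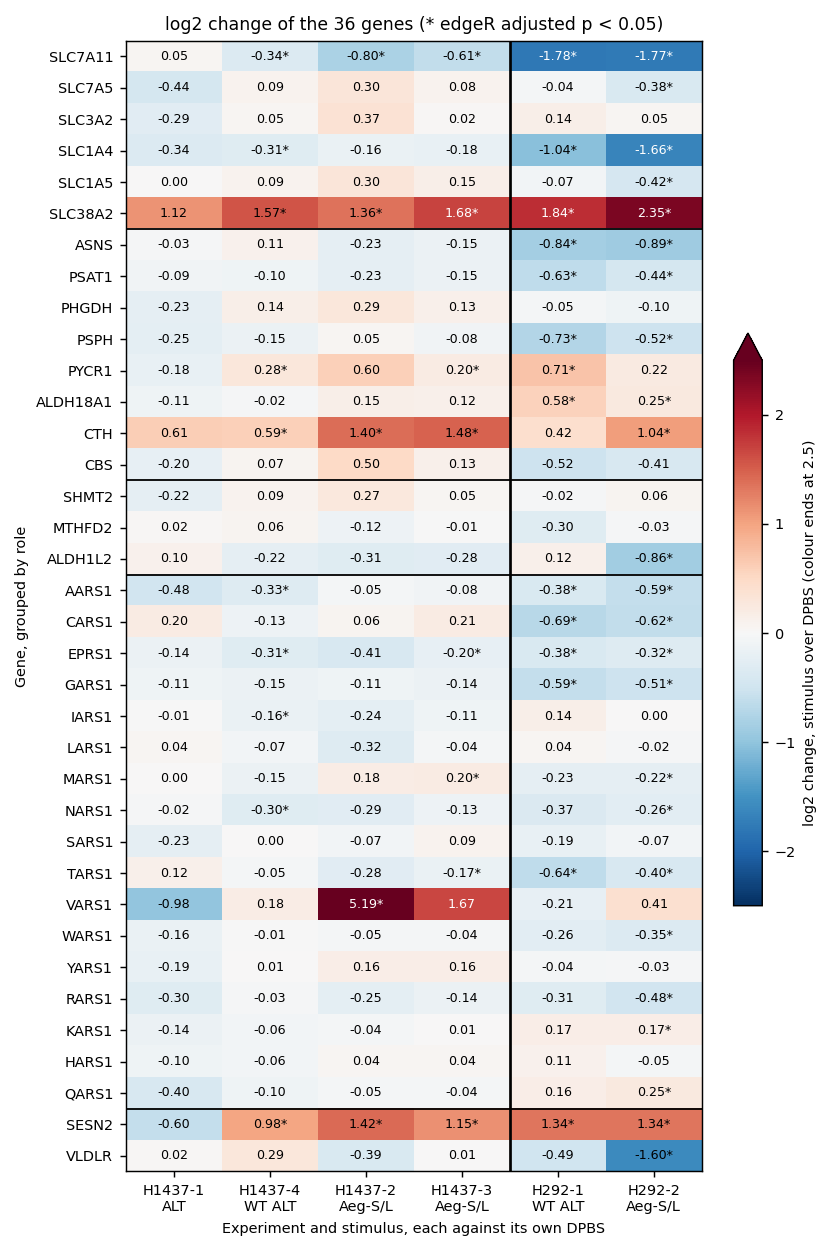
Log2 change of each of the 36 genes (rows, grouped by role) under a stimulus over the DPBS of the same experiment (columns). Red marks higher and blue lower levels with the stimulus, and asterisks mark edgeR adjusted p under 0.05. SLC38A2 is red in every column, and the falls of SLC7A11, SLC1A4 and ASNS are deepest in the NCI-H292 columns.

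Among the transporters, SLC38A2 (SNAT2, a sodium-coupled carrier of small neutral amino acids that rises when amino acids are scarce; ENSG00000134294.9, hg19 chr12:46751972-46766650) changed most. In H292-2 it had 1724 and 1791 CPM with Aeg-S/L, against 356 and 335 CPM in DPBS, a log2 change of 2.35 ± 0.05 (edgeR adjusted p 2.947e-17). In H292-1 it had 1252 and 1252 CPM with WT ALT, against 373 and 324 CPM in DPBS (1.84 ± 0.14, adjusted p 1.201e-05). Stimulus and DPBS libraries did not overlap, and the fold was 5.09 under Aeg-S/L and 3.59 under WT ALT.

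In NCI-H1437 the same gene had 835 and 847 CPM with Aeg-S/L in H1437-3, against 246 and 278 CPM in DPBS (1.68 ± 0.07, adjusted p 7.17e-12). In H1437-4, SLC38A2 had 739 and 849 CPM with WT ALT, against 266 and 267 CPM in DPBS (1.57 ± 0.06, adjusted p 6.793e-12). In H1437-2 it had 759 and 828 CPM with Aeg-S/L, against 298 and 322 CPM in DPBS (1.36 ± 0.21, adjusted p 0.001843). Again no stimulus library overlapped a DPBS library. In H1437-1, ALT gave 622, 676 and 681 CPM, against 165, 366 and 379 CPM in DPBS, with the first DPBS library far below the others. That change, 1.12 ± 0.29, missed the threshold (adjusted p 0.05744), and without DPBS replicate 1 and ALT+Tra replicate 3 it was 0.83 with an adjusted p of 0.0006431.

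SLC7A11, the light chain of the cystine-glutamate antiporter xCT and the cell's main entry for cystine (ENSG00000151012.9, hg19 chr4:139085251-139163503), moved the other way. It had 180 and 187 CPM with Aeg-S/L in H292-2, against 614 and 639.8 CPM in DPBS (-1.77 ± 0.06, adjusted p 2.439e-15). In H292-1 it had 154 and 159.7 CPM with WT ALT, against 609 and 465 CPM in DPBS (-1.78 ± 0.14, adjusted p 1.762e-05). All 4 stimulated NCI-H292 libraries lay far below DPBS, with a fold of 0.292 in either experiment. The antisense gene SLC7A11-AS1 overlaps 865 exonic bases of SLC7A11, but had 167 counts over the 8 libraries of H1437-4.

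In NCI-H1437 SLC7A11 fell less. It had 246 and 244 CPM with Aeg-S/L in H1437-3, against 339.5 and 408 CPM in DPBS (-0.61 ± 0.08, adjusted p 1.154e-05). With WT ALT in H1437-4 SLC7A11 had 275 and 298 CPM, against 366 and 359.9 CPM in DPBS (-0.34 ± 0.05, adjusted p 0.0001547). In H1437-2 the groups also did not overlap, at 225 and 260.4 CPM with Aeg-S/L against 426 and 422 CPM in DPBS (-0.80 ± 0.21, adjusted p 0.04279). That last call was lost on leaving out any 1 of the 4 libraries, with adjusted p of 0.1397 to 0.3115, and in the blocked fit (0.06103). In H1437-1 the gene stood at 292.2, 314 and 269 CPM with ALT, against 117, 331 and 396 CPM in DPBS, overlapping groups with a change of 0.05.

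SLC1A4, the exchanger ASCT1 for alanine, serine and cysteine, had 5.90 and 6.92 CPM with Aeg-S/L in H292-2, against 19.7 and 21.0 CPM in DPBS (-1.66 ± 0.14, adjusted p 9.183e-09). With WT ALT in H292-1 it had 7.11 and 9.62 CPM, against 17.2 and 17.2 CPM in DPBS (-1.04 ± 0.18, adjusted p 0.002241). In H1437-4 SLC1A4 had 48.1 and 55.4 CPM with WT ALT, against 65.8 and 63.0 CPM in DPBS (-0.31 ± 0.09, adjusted p 0.01044). Groups were apart in all of these, but the H1437-4 call was lost without WT ALT replicate 1 (adjusted p 0.07497) or DPBS replicate 1 (0.08205).

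The large-volume carriers changed less. SLC7A5 had 8775 and 8728 CPM with Aeg-S/L in H292-2, against 11551 and 11148 CPM in DPBS (-0.38 ± 0.05, adjusted p 1.626e-06). SLC1A5, the glutamine carrier ASCT2, had 317 and 307 CPM with Aeg-S/L, against 425 and 408 CPM in DPBS (-0.42 ± 0.06, adjusted p 6.331e-06). Neither passed in the 5 other stimulus comparisons, where SLC7A5 changed by -0.44 to 0.30 and SLC1A5 by -0.07 to 0.30. SLC3A2, the heavy chain shared by SLC7A5 and SLC7A11, passed in none, with changes of -0.29 to 0.37.

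**Figure D2:**
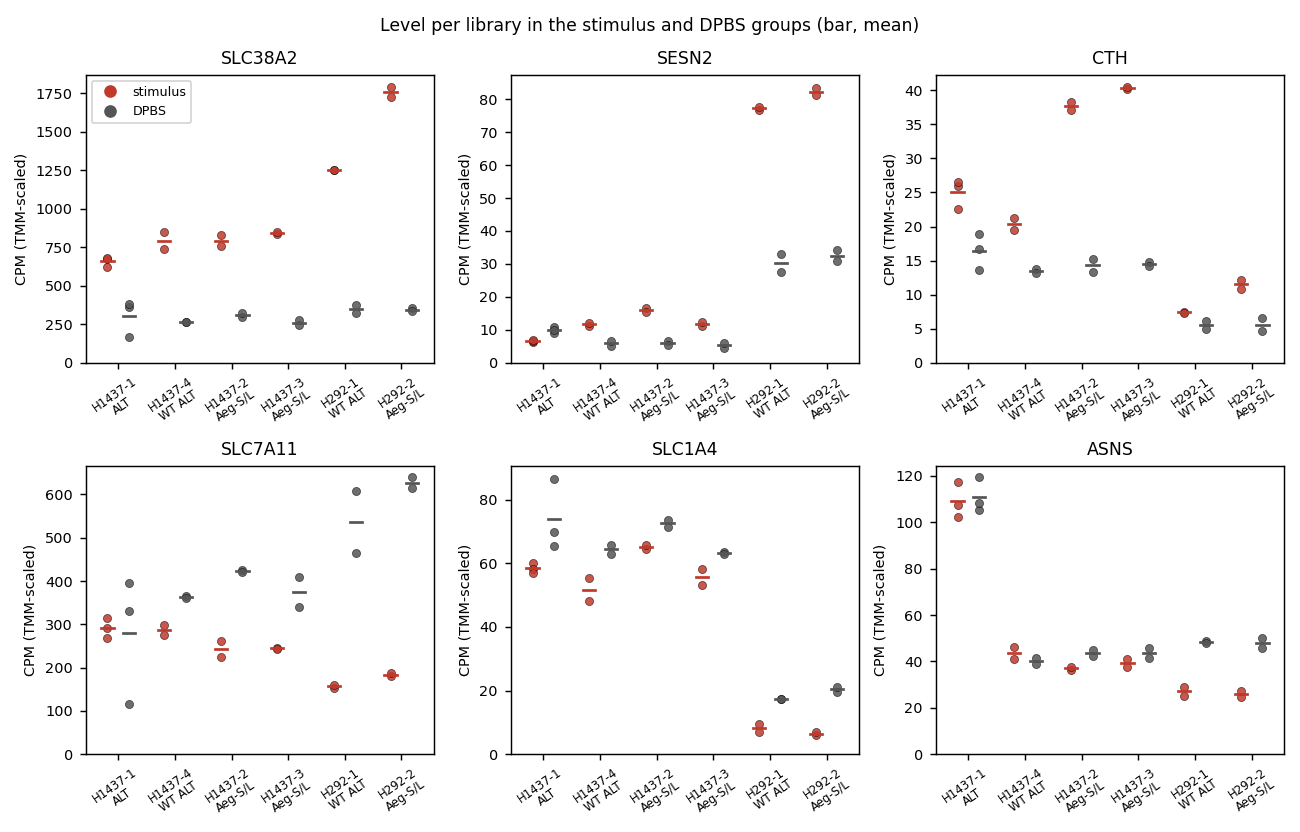
TMM-scaled CPM per library (points; bars, means) of 6 genes under a stimulus (red, left of each pair) and in DPBS (grey) in the 6 experiments. SLC38A2, SESN2 and CTH sit above DPBS in most experiments, and SLC7A11, SLC1A4 and ASNS sit lowest against DPBS in NCI-H292.

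The enzymes of amino acid synthesis did not move as 1 group. CTH, cystathionine gamma-lyase, which makes cysteine from methionine-derived sulfur, had 40.1 and 40.5 CPM with Aeg-S/L in H1437-3, against 14.8 and 14.2 CPM in DPBS (1.48 ± 0.10, adjusted p 6.808e-09). In H1437-2 it had 37.1 and 38.3 CPM with Aeg-S/L, against 13.4 and 15.2 CPM in DPBS (1.40 ± 0.18, adjusted p 0.000606). With WT ALT in H1437-4 CTH had 19.5 and 21.2 CPM, against 13.7 and 13.2 CPM in DPBS (0.59 ± 0.12, adjusted p 0.001226). The groups did not overlap in any of these.

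In NCI-H292, where CTH was lower, it had 12.2 and 10.8 CPM with Aeg-S/L in H292-2, against 6.52 and 4.66 CPM in DPBS (1.04 ± 0.19, adjusted p 0.0001475). In H292-1 it had 7.48 and 7.32 CPM with WT ALT, against 6.10 and 4.93 CPM in DPBS, a change of 0.42 ± 0.24 that did not pass (adjusted p 0.2355). CBS, which catalyses the step before CTH, passed in no stimulus comparison, with changes of -0.52 to 0.50.

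ASNS, asparagine synthetase, the standard marker gene of the ATF4 response (ENSG00000070669.12, hg19 chr7:97481430-97501854), fell in NCI-H292. It had 24.7 and 27.2 CPM with Aeg-S/L in H292-2, against 49.9 and 45.9 CPM in DPBS (-0.89 ± 0.09, adjusted p 3.334e-07). With WT ALT in H292-1 it had 25.1 and 29.0 CPM, against 49.0 and 48.0 CPM in DPBS (-0.84 ± 0.14, adjusted p 0.001662). The groups were apart in both, with folds of 0.541 and 0.558. In NCI-H1437 ASNS changed by -0.23 to 0.11 and passed in none of the 4 experiments.

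Of the serine enzymes, PSAT1 (-0.44 ± 0.06) and PSPH (-0.52 ± 0.09) fell under Aeg-S/L in H292-2 with adjusted p of 1.052e-05 and 0.000155, and under WT ALT in H292-1 (-0.63 ± 0.13, adjusted p 0.007805, and -0.73 ± 0.13, adjusted p 0.002896). PHGDH, the first enzyme of that pathway, did not pass in any experiment (-0.23 to 0.29). The H292-1 calls of PSAT1 and PSPH were lost without WT ALT replicate 1 (adjusted p 0.09621 and 0.05756), and that of PSAT1 also without WT ALT replicate 2 (0.06194) or DPBS replicate 1 (0.08541).

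The proline enzymes rose in some comparisons, PYCR1 in 3 and ALDH18A1 in 2 of 6. PYCR1, which makes proline in mitochondria, rose by 0.28 ± 0.05 in H1437-4 (adjusted p 0.0006431), by 0.20 ± 0.06 in H1437-3 (0.01409) and by 0.71 ± 0.19 in H292-1 (0.02372). ALDH18A1, the enzyme before it, rose by 0.25 ± 0.06 in H292-2 (0.001308) and by 0.58 ± 0.13 in H292-1 (0.01059). In H292-1 PYCR1 had 30.9 and 35.7 CPM with WT ALT, against 17.8 and 23.0 CPM in DPBS. ALDH18A1 had 166.5 and 164 CPM with WT ALT there, against 103 and 118 CPM in DPBS. Both sets were apart, but each H292-1 call was lost without DPBS replicate 1 (adjusted p 0.1918 for PYCR1, 0.1034 for ALDH18A1), WT ALT replicate 1 (0.06936 and 0.08689) or WT ALT replicate 2 (0.1589 and 0.07348). The H1437-3 call of PYCR1 was lost without DPBS replicate 2 (0.1596), Aeg-S/L replicate 1 (0.06843) or Aeg-S/L replicate 2 (0.109).

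Of the mitochondrial one-carbon enzymes, SHMT2 and MTHFD2 passed in no stimulus comparison (-0.22 to 0.27 and -0.30 to 0.06). ALDH1L2, which oxidises formyl-tetrahydrofolate, fell in H292-2 at a low level, with 1.54 and 1.72 CPM under Aeg-S/L against 3.22 and 2.71 CPM in DPBS (-0.86 ± 0.28, adjusted p 0.01684). The ALDH1L2 call was lost without Aeg-S/L replicate 1 (adjusted p 0.08876) or DPBS replicate 1 (0.1115).

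The synthetases, which join each amino acid to its tRNA, had modest falls, which were called most often under Aeg-S/L in H292-2. Of 17, 9 fell and 2 rose under Aeg-S/L in H292-2 (21.1% and 22.1% of all genes), and 5 fell and none rose under WT ALT in H292-1 (11.3% and 11.6%). The falls spanned -0.62 to -0.22 in H292-2 and -0.69 to -0.38 in H292-1. In NCI-H1437, 4 fell and none rose under WT ALT in H1437-4 (-0.33 to -0.16; 17.1% and 15.8% of all genes), and 2 fell and 1 rose under Aeg-S/L in H1437-3 (15.8% and 15.4%).

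CARS1, for cysteine, had 63.6 and 59.9 CPM with Aeg-S/L in H292-2, against 94.5 and 95.4 CPM in DPBS (-0.62 ± 0.07, adjusted p 4.36e-07). With WT ALT in H292-1 CARS1 had 59.5 and 60.3 CPM, against 97.7 and 95.6 CPM in DPBS (-0.69 ± 0.11, adjusted p 0.001517), again without overlap. It did not pass in NCI-H1437 (-0.13 to 0.21). The mitochondrial share in H292-1 was 1.02% and 0.99% with WT ALT and 2.79% and 2.51% in DPBS, and its part in the H292-1 values was not tested.

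GARS1, for glycine, had 121 and 115 CPM with Aeg-S/L in H292-2, against 171 and 166 CPM in DPBS (-0.51 ± 0.06, adjusted p 4.928e-07). TARS1, for threonine, had 389 and 403 CPM with Aeg-S/L, against 523 and 524.5 CPM in DPBS (-0.40 ± 0.05, adjusted p 3.419e-06). AARS1, for alanine, had 123 and 121 CPM with Aeg-S/L, against 183 and 185 CPM in DPBS (-0.59 ± 0.06, adjusted p 1.141e-07). The groups were apart for all of these genes. RARS1, for arginine, fell there by 0.48 ± 0.07 (adjusted p 7.737e-06), and WARS1, EPRS1, NARS1 and MARS1 fell by 0.35, 0.32, 0.26 and 0.22. KARS1 rose by 0.17 ± 0.05 and QARS1, for glutamine, by 0.25 ± 0.05, while LARS1, SARS1, YARS1 and HARS1 lay between -0.07 and -0.02 and did not pass. The KARS1 call was lost on leaving out any 1 of the 4 libraries (adjusted p 0.05152 to 0.1012).

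In H292-1, TARS1 fell by 0.64 ± 0.12 (adjusted p 0.003307), GARS1 by 0.59 ± 0.11 (0.003892), AARS1 by 0.38 ± 0.11 (0.02682) and EPRS1, for glutamate and proline, by 0.38 ± 0.11 (0.03245). The calls of AARS1 and EPRS1 were lost on leaving out any 1 library (adjusted p 0.1145 to 0.2093 and 0.09032 to 0.2422). Those of TARS1 and GARS1 were lost without WT ALT replicate 1 (0.06251 and 0.07295), and GARS1 also without WT ALT replicate 2 (0.05139). In H1437-4, AARS1 had 282 and 299 CPM with WT ALT, against 377.5 and 355.5 CPM in DPBS (-0.33 ± 0.06, adjusted p 0.0001968). EPRS1 fell there by 0.31 ± 0.06 (0.0005072), NARS1 by 0.30 ± 0.06 (0.0009886), and IARS1 by 0.16 ± 0.05 (0.02346), the last call being lost without WT ALT replicate 1 (0.06063), DPBS replicate 1 (0.08497) or DPBS replicate 2 (0.0843). In H1437-3, EPRS1 (-0.20 ± 0.06, adjusted p 0.01418) and TARS1 (-0.17 ± 0.06, 0.04281) fell. The EPRS1 call was lost without DPBS replicate 2 (0.1137), Aeg-S/L replicate 1 (0.05416) or replicate 2 (0.09589), and the TARS1 call without any 1 library (0.1014 to 0.1673).

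MARS1, for methionine, was the 1 gene called in opposite directions. It had 154 and 159 CPM with Aeg-S/L in H1437-3, against 142 and 131 CPM in DPBS (0.20 ± 0.06, adjusted p 0.02066). In H292-2 it had 175 and 173 CPM with Aeg-S/L, against 209.5 and 195 CPM in DPBS (-0.22 ± 0.06, adjusted p 0.004979). Neither call held throughout: the rise was lost without DPBS replicate 2 (adjusted p 0.1866), Aeg-S/L replicate 1 (0.06843) or replicate 2 (0.1675), and the fall without Aeg-S/L replicate 2 (0.05057) or DPBS replicate 1 (0.1022). MARS1 shares 355 exonic bases with DDIT3, on the opposite strand, and the library kit does not mark strand. DDIT3, a stress factor, rose by 3.0 in H1437-3 and by 0.70 in H292-2, and its part in the MARS1 values was not tested.

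VARS1, for valine, is annotated at chr6:31745295-31763730 (hg19) and its row held few counts in most libraries. Whether that row takes up all reads of the gene was not tested, so these counts are not read as its expression. In H1437-2 it had 27.2 and 0.509 CPM with Aeg-S/L, against 0.496 and 0.260 CPM in DPBS, so 1 library made the fitted change of 5.19 ± 1.27 (adjusted p 0.03081). Without Aeg-S/L replicate 1 the VARS1 change was 0.41 with an adjusted p of 0.857, and the call was also lost without DPBS replicate 1 (0.1549) or replicate 2 (0.2379). Aeg-S/L+Tra had 25 and 19.2 CPM in that experiment. No change of VARS1 is read from it.

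SESN2, a stress-induced protein that senses leucine and restrains the growth kinase mTORC1, had 81.1 and 83.5 CPM with Aeg-S/L in H292-2, against 34.1 and 30.9 CPM in DPBS (1.34 ± 0.08, adjusted p 1.045e-10). With WT ALT in H292-1 it had 76.8 and 77.6 CPM, against 27.7 and 33.1 CPM in DPBS (1.34 ± 0.13, adjusted p 8.647e-05). The groups were far apart, and the changes in NCI-H1437 were of similar size from a lower level. There SESN2 rose by 1.15 ± 0.17 in H1437-3 (adjusted p 5.667e-05), by 0.98 ± 0.17 in H1437-4 (0.0002876) and by 1.42 ± 0.23 in H1437-2 (0.002822), the last call being lost without Aeg-S/L replicate 1 (0.05034) or DPBS replicate 2 (0.07544). In H1437-1 SESN2 had 6.31, 6.56 and 6.86 CPM with ALT, against 10.8, 9.20 and 9.87 CPM in DPBS. All ALT libraries were lower there, by -0.60 ± 0.17 (adjusted p 0.07928), and by -0.53 (0.0224) without DPBS replicate 1 and ALT+Tra replicate 3.

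VLDLR, a lipoprotein receptor that is also an ATF4 target, had 0.481 and 0.473 CPM with Aeg-S/L in H292-2, against 1.91 and 1.0 CPM in DPBS (-1.60 ± 0.51, adjusted p 0.01672). At these low levels the VLDLR call was lost without Aeg-S/L replicate 1 (0.06848), Aeg-S/L replicate 2 (0.07309) or DPBS replicate 1 (0.2141). In the 5 other stimulus comparisons it changed by -0.49 to 0.29 and did not pass.

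Promoter letters and direction can be set side by side. Of the 11 genes with TGATGNAA in the window, none rose, 9 fell and 2 did not pass under Aeg-S/L in H292-2. Of the 17 with a window lacking it, 6 rose, 6 fell and 5 did not pass, where 22.1% of all genes rose and 21.1% fell. Under WT ALT in H292-1 the 11 genes had 6 falls and no rise. The 17 had 3 rises and 2 falls there, where 11.6% of all genes rose and 11.3% fell. In H1437-3 the 11 genes had 1 rise and 1 fall under Aeg-S/L, and the 17 had 3 rises and 1 fall (15.4% and 15.8%). With WT ALT in H1437-4 the 11 had 4 falls and no rise, and the 17 had 3 rises and 1 fall (15.8% and 17.1%). Aeg-S/L in H1437-2 gave no call among the 11 and 3 rises among the 17 (3.63% and 3.1%). ALT in H1437-1 gave no call in either set (3.59% and 1.13%). These counts describe the genes and were not tested.

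The chelators asked whether calcium was needed for the change under Aeg-S/L. BAPTA-AM, which enters cells, held SLC38A2, CTH and SESN2 below their Aeg-S/L levels in both lines, whereas EGTA, which stays outside, left SLC38A2 high, and many synthetases were higher with it than with Aeg-S/L alone. Chelator and DPBS comparisons share the Aeg-S/L libraries, so each is given with its own values. With BAPTA-AM against Aeg-S/L alone, 7 genes rose and 5 fell in H1437-3 (11.6% and 16.1% of all genes), and 13 rose and 6 fell in H292-2 (17.6% and 20.3%). With EGTA, 14 rose and 2 fell in H1437-3 (15.8% and 14.8%), and 19 rose and 7 fell in H292-2 (23.2% and 21.7%). The median change of the 36 genes with EGTA was 0.26 in H292-2, against 0.01 for all genes, and 0.07 in H1437-3, against -0.02.

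SLC38A2 had 192 and 209.5 CPM with BAPTA-AM in H1437-3, 746.5 and 693 CPM with EGTA, 835 and 847 CPM with Aeg-S/L alone, and 246 and 278 CPM in DPBS. With BAPTA-AM it was below DPBS too (-0.39 ± 0.06, adjusted p 0.0002052) and -2.07 ± 0.07 against Aeg-S/L (7.016e-13). With EGTA it was lower than with Aeg-S/L alone by -0.22 ± 0.06 (0.0139), a call lost without Aeg-S/L replicate 1 (0.0684), Aeg-S/L replicate 2 (0.108) or EGTA replicate 2 (0.1529).

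In H292-2 SLC38A2 had 743 and 723 CPM with BAPTA-AM, 1586.5 and 1705 CPM with EGTA, 1724 and 1791 CPM with Aeg-S/L alone, and 356 and 335 CPM in DPBS. BAPTA-AM libraries thus lay between Aeg-S/L and DPBS, at -1.26 ± 0.05 against Aeg-S/L (adjusted p 2.183e-13) and 1.08 ± 0.05 against DPBS (7.782e-12). EGTA libraries lay just under Aeg-S/L, a change of -0.09 that did not pass.

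CTH had 8.56 and 8.88 CPM with BAPTA-AM in H1437-3, 19.9 and 19.3 CPM with EGTA, 40.1 and 40.5 CPM with Aeg-S/L alone, and 14.8 and 14.2 CPM in DPBS. Against Aeg-S/L it fell with BAPTA-AM by 2.21 ± 0.10 (adjusted p 5.132e-11) and with EGTA by 1.04 ± 0.09 (6.123e-07). In H292-2 CTH fell with BAPTA-AM by 1.74 ± 0.19 (4.686e-07) and with EGTA by 0.61 ± 0.18 (0.01002), the EGTA call being lost without Aeg-S/L replicate 1 (0.08744) or EGTA replicate 1 (0.09159).

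SESN2 parted the chelators. In H1437-3 it had 6.76 and 4.91 CPM with BAPTA-AM, 31.9 and 27.9 CPM with EGTA, 11.2 and 12.3 CPM with Aeg-S/L alone, and 4.59 and 5.99 CPM in DPBS. Against Aeg-S/L it fell with BAPTA-AM by 1.01 ± 0.16 (adjusted p 0.0001711) and rose with EGTA by 1.35 ± 0.15 (5.998e-06). BAPTA-AM against EGTA gave -2.36 ± 0.16 (1.138e-08). In H292-2 SESN2 had 17.1 and 17.9 CPM with BAPTA-AM, 73.3 and 67.2 CPM with EGTA, 81.1 and 83.5 CPM with Aeg-S/L alone, and 34.1 and 30.9 CPM in DPBS. BAPTA-AM took it below DPBS (-0.89 ± 0.09, adjusted p 1.258e-07), and EGTA left it slightly under Aeg-S/L (-0.23 ± 0.08, 0.02396). That EGTA call was lost without Aeg-S/L replicate 1 (0.06437), Aeg-S/L replicate 2 (0.1272) or EGTA replicate 2 (0.1596).

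SLC7A11 had 101 and 105 CPM with BAPTA-AM in H292-2, 260.0 and 268.5 CPM with EGTA, 180 and 187 CPM with Aeg-S/L alone, and 614 and 639.8 CPM in DPBS. It thus was lower still with BAPTA-AM (-0.83 ± 0.06, adjusted p 2.937e-10) and rose with EGTA (0.53 ± 0.05, 2.01e-07), staying below DPBS with either. In H1437-3 SLC7A11 had 190.5 and 212.5 CPM with BAPTA-AM, 379 and 392.1 CPM with EGTA, 246 and 244 CPM with Aeg-S/L alone, and 339.5 and 408 CPM in DPBS. There it rose with EGTA by 0.66 ± 0.08 (7.41e-06) into the DPBS range, and its fall with BAPTA-AM (-0.28 ± 0.08, 0.01111) was lost without Aeg-S/L replicate 1 (0.06374), replicate 2 (0.05769) or BAPTA-AM replicate 1 (0.1208).

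**Figure D3:**
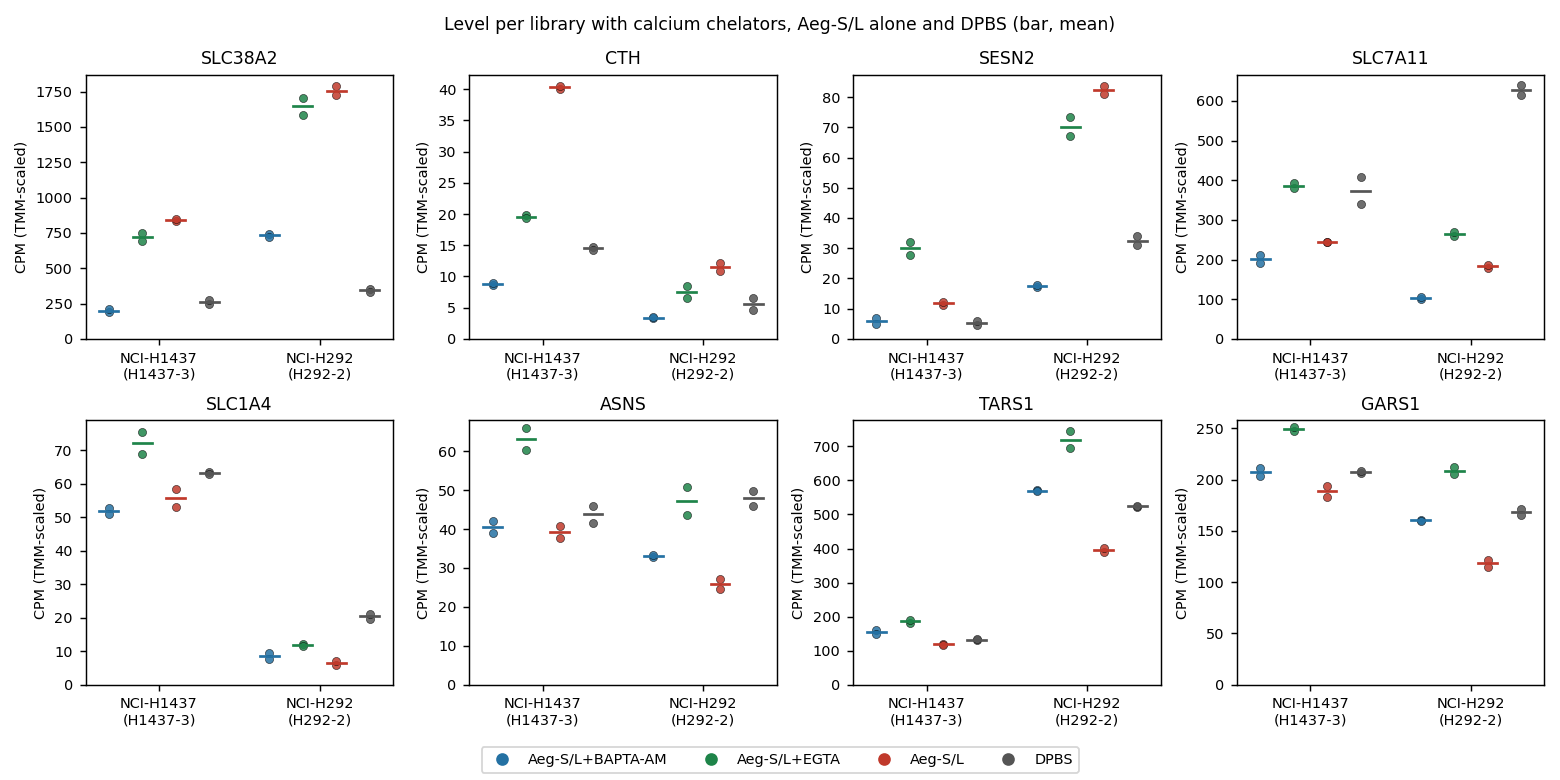
TMM-scaled CPM per library (points; bars, means) of 8 genes with BAPTA-AM, with EGTA, with Aeg-S/L alone and in DPBS, in H1437-3 (NCI-H1437) and H292-2 (NCI-H292). SLC38A2, CTH and SESN2 are low with BAPTA-AM, and ASNS, TARS1 and GARS1 are higher with EGTA than with Aeg-S/L alone in both lines.

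ASNS had 50.8 and 43.7 CPM with EGTA in H292-2, against 24.7 and 27.2 CPM with Aeg-S/L alone (0.86 ± 0.10, adjusted p 5.038e-07). In H1437-3 it had 65.9 and 60.3 CPM with EGTA, against 40.9 and 37.8 CPM with Aeg-S/L alone (0.68 ± 0.08, 1.331e-05). The EGTA libraries of H1437-3 also lay above DPBS, by 0.53 ± 0.08 (0.0006059), while those of H292-2 overlapped DPBS at 49.9 and 45.9 CPM. SLC1A4 rose with EGTA by 0.88 ± 0.14 in H292-2 (4.042e-05) and by 0.37 ± 0.07 in H1437-3 (0.001134).

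Synthetases were higher with EGTA than with Aeg-S/L alone, 7 of 17 in H1437-3 with no fall and 11 of 17 in H292-2 with 2 falls (KARS1 and QARS1), where 15.8% of all genes rose and 14.8% fell in H1437-3, and 23.2% and 21.7% in H292-2. TARS1 had 695 and 745 CPM with EGTA in H292-2, against 389 and 403 CPM with Aeg-S/L alone (0.86 ± 0.05, adjusted p 1.188e-10). CARS1 rose by 0.95 ± 0.07 (1.341e-09), GARS1 by 0.82 ± 0.06 (8.45e-10) and AARS1 by 0.71 ± 0.06 (1.08e-08) in that line. TARS1, CARS1 and GARS1 also lay above DPBS with EGTA, by 0.46, 0.33 and 0.31 in H292-2 and by 0.49, 0.50 and 0.27 in H1437-3. That H1437-3 call of GARS1 was lost without EGTA replicate 1 (0.05111) or replicate 2 (0.07893).

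With BAPTA-AM, 6 synthetases in H1437-3 and 9 in H292-2 rose against Aeg-S/L alone and none fell (11.6% of all genes rose and 16.1% fell in H1437-3, 17.6% and 20.3% in H292-2). The calls of EPRS1 (0.05353 to 0.1126) and KARS1 (0.08727 to 0.1188) in H1437-3 were lost without either Aeg-S/L library or 1 BAPTA-AM library, replicate 2 for EPRS1 and replicate 1 for KARS1. In H292-2 that of NARS1 was lost without any 1 library (0.06287 to 0.151), and that of HARS1 without Aeg-S/L replicate 1 (0.3973) or either BAPTA-AM replicate (0.1938 and 0.09018). RARS1 had 169 and 159 CPM with BAPTA-AM in H292-2, against 103 and 106 CPM with Aeg-S/L alone (0.65 ± 0.07, adjusted p 1.345e-07). AARS1 rose by 0.58 ± 0.06 (1.626e-07) and TARS1 by 0.52 ± 0.05 (1.055e-07) there, and TARS1 by 0.39 ± 0.06 (0.0001123) in H1437-3. The one-carbon enzyme MTHFD2 rose with EGTA, having 174.5 and 185.5 CPM in H292-2 against 112 and 113 CPM with Aeg-S/L alone (0.68 ± 0.06, 1.67e-08), and it did not pass with BAPTA-AM.

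BAPTA-AM set directly against EGTA gave 5 rises and 19 falls in H292-2 (21.9% and 24.7% of all genes), and 7 rises and 15 falls in H1437-3 (16.7% and 21.1%). SLC38A2, CTH, SESN2, SLC7A11, ASNS, SLC1A4, CARS1, GARS1, TARS1 and PSAT1 were among the falls in both. Against DPBS, 5 genes rose and 10 fell with BAPTA-AM in H292-2 (17.6% and 19.0%), and 9 rose and 3 fell with EGTA (20.1% and 14.4%). In H1437-3, 11 rose and 9 fell with BAPTA-AM (15.0% and 19.1%), and 9 rose and none fell with EGTA (4.19% and 0.988%). The mitochondrial share moved with the chelator, at 0.19% and 0.22% with BAPTA-AM, 1.4% and 1.06% with EGTA and 2.05% and 1.82% with Aeg-S/L alone in H292-2. In H1437-3 it was 1.15% and 0.8% with BAPTA-AM, 2.29% and 2.34% with EGTA and 3.26% and 3.45% with Aeg-S/L alone. Its part in these results was not tested, and no group had a chelator without Aeg-S/L.

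Tra was used to ask whether the responses needed MEK. No group had Tra without a stimulus, so an effect of Tra itself and one on the response cannot be told apart. With Aeg-S/L in H1437-2, no gene rose and 2 fell against Aeg-S/L alone (0.124% and 1.15% of all genes). SLC38A2 had 320.3 and 422 CPM with Aeg-S/L+Tra, against 759 and 828 CPM with Aeg-S/L alone (-1.10 ± 0.20, adjusted p 0.01642). CTH had 17.5 and 18.2 CPM with Aeg-S/L+Tra, against 37.1 and 38.3 CPM with Aeg-S/L alone (-1.08 ± 0.18, 0.00841). Neither set overlapped, but both calls were lost on leaving out any 1 of the 4 libraries, with adjusted p of 0.06377 to 0.3297 for SLC38A2 and 0.1241 to 0.2311 for CTH. SESN2 had 11.5 and 15.7 CPM with Aeg-S/L+Tra, overlapping the 16.8 and 15.3 CPM of Aeg-S/L alone (-0.24 ± 0.22). Against DPBS it was the 1 gene called with Aeg-S/L+Tra (0.478% of all genes rose and 0.0177% fell), at 1.18 ± 0.23 (adjusted p 0.04448), and that call was lost on leaving out any 1 library (0.09847 to 0.8091).

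With ALT in H1437-1, 2 genes rose with Tra and none fell (1.33% and 3.75% of all genes). SESN2 had 28.1, 25.4 and 28.8 CPM with ALT+Tra, against 6.31, 6.56 and 6.86 CPM with ALT alone (2.06 ± 0.18, adjusted p 0.0001016), and was the 1 gene called against DPBS, at 10.8, 9.20 and 9.87 CPM there (1.46 ± 0.17, 0.004777; 0.123% of all genes rose and 0.16% fell). AARS1 had 496, 499 and 619.9 CPM with ALT+Tra, against 311, 303 and 298 CPM with ALT alone (0.83 ± 0.17, 0.01976), a call lost without ALT replicate 1 (0.09471), ALT replicate 2 (0.116), ALT replicate 3 (0.1282) or ALT+Tra replicate 2 (0.05464). Without DPBS replicate 1 and ALT+Tra replicate 3 the count was 14 rises and 1 fall, and the fall was SLC38A2 (-0.49, adjusted p 0.01044). The share of all genes called in that fit is not given here, so its count is not read as particular to the genes described.

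**Figure D4:**
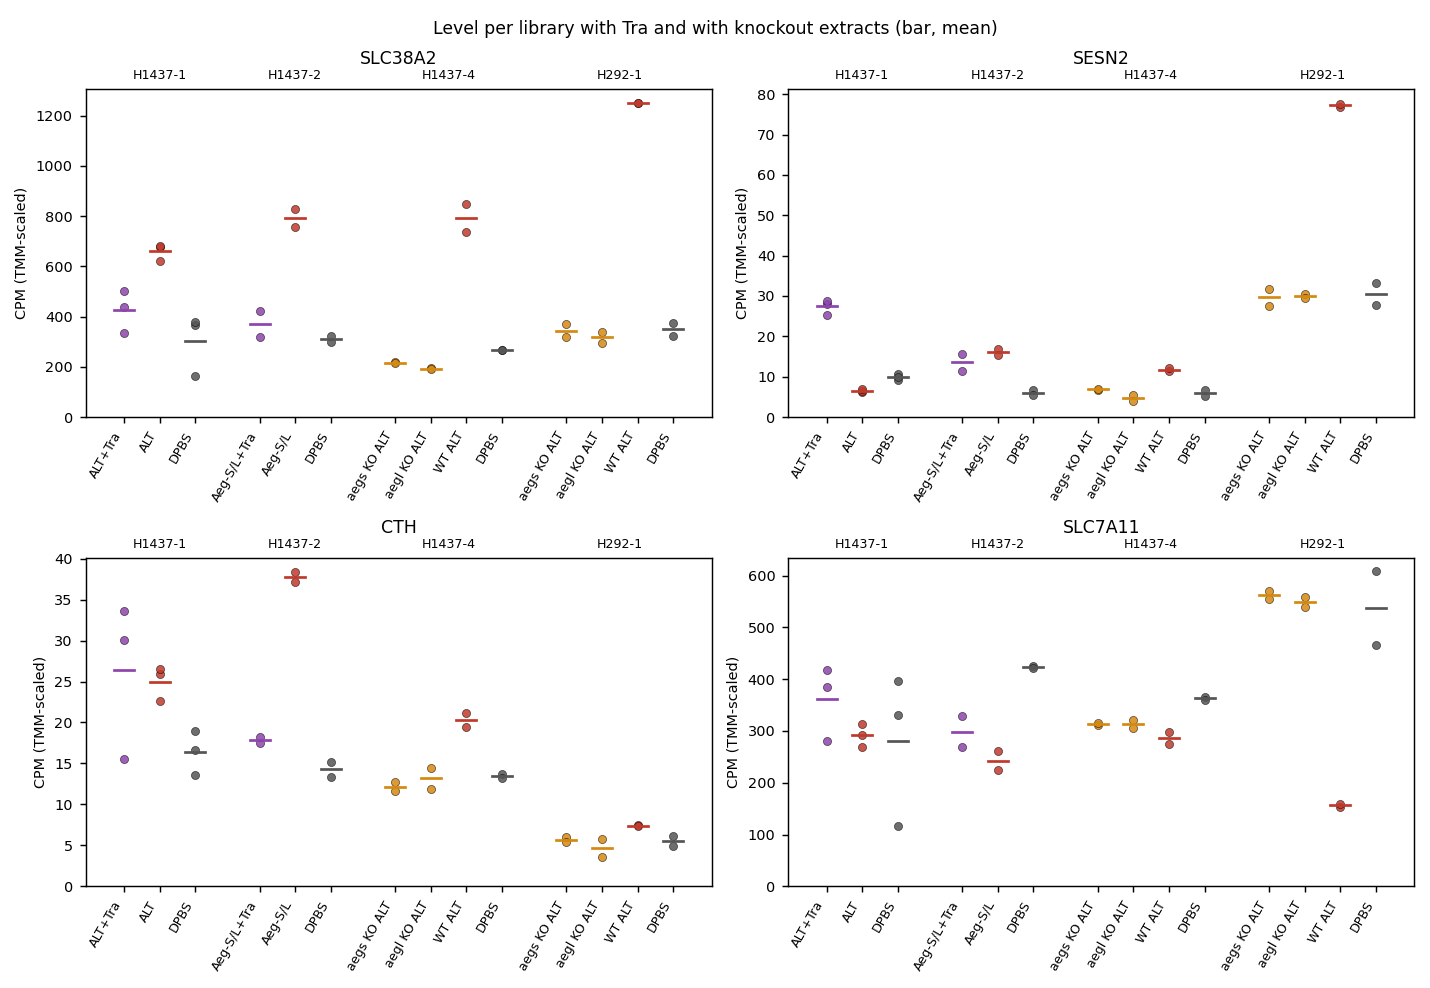
TMM-scaled CPM per library (points; bars, means) of 4 genes with Tra (H1437-1, H1437-2) and with knockout extracts (H1437-4, H292-1), beside the stimulus and DPBS. SLC38A2 with knockout extracts sits far below WT ALT, and SESN2 with ALT+Tra sits above both other groups of H1437-1.

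The knockout extracts asked which changes needed the toxin genes. SLC38A2, SESN2 and CTH were lower with either extract than with WT ALT in H1437-4, and SLC38A2 and SESN2 in H292-1. Some genes in H292-1 lay between DPBS and WT ALT with either extract, though none passed against DPBS. Against DPBS, 1 gene fell with aegs KO ALT in H1437-4 and none rose (0.945% and 0.138% of all genes), and likewise with aegl KO ALT (0.598% and 0.168%). In H292-1 no gene was called with either extract (0% of all genes in both directions with aegs KO ALT, 0.0963% rises and 0.0241% falls with aegl KO ALT), with 4 and 6 genes at an unadjusted p under 0.05, while DESeq2 called none for either. Against WT ALT, 5 rose and 4 fell with aegs KO ALT in H1437-4 (15.7% and 14.2%), and 6 rose and 4 fell with aegl KO ALT (16.2% and 14.5%). In H292-1, 12 rose and 4 fell with aegs KO ALT (13.2% and 13.4%), and 8 rose and 3 fell with aegl KO ALT (9.85% and 9.13%). The 12 rises include VARS1, whose row is not read as its expression.

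SLC38A2 had 218 and 216 CPM with aegs KO ALT in H1437-4, 196 and 190.5 CPM with aegl KO ALT, and 739 and 849 CPM with WT ALT. Both extracts gave less than WT ALT (-1.87 ± 0.06, adjusted p 9.529e-13, and -2.04 ± 0.06, 3.161e-13) and less than the 266 and 267 CPM of DPBS (-0.29 ± 0.06, 0.03038, and -0.47 ± 0.06, 0.002008). The falls below DPBS were lost without either aegs KO replicate or either DPBS replicate (0.1254 to 0.3253) for aegs KO ALT, and without aegl KO replicate 1 (0.09111) or replicate 2 (0.0685) for aegl KO ALT.

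In H292-1 SLC38A2 had 371 and 317 CPM with aegs KO ALT, 296 and 340.5 CPM with aegl KO ALT, and 1252 and 1252 CPM with WT ALT (-1.86 ± 0.14, adjusted p 1.048e-05, and -1.98 ± 0.14, 8.351e-06). SESN2 there had 27.6 and 31.7 CPM with aegs KO ALT, 30.4 and 29.4 CPM with aegl KO ALT, and 76.8 and 77.6 CPM with WT ALT (-1.38 ± 0.13, 6.695e-05, and -1.37 ± 0.13, 8.199e-05). SLC7A11 had 570.2 and 554.5 CPM with aegs KO ALT, 539 and 558 CPM with aegl KO ALT, and 154 and 159.7 CPM with WT ALT (1.84 ± 0.15, 1.345e-05, and 1.81 ± 0.14, 1.852e-05). With either extract these 3 genes overlapped DPBS. Of the H292-1 calls against WT ALT, theirs are the ones that held in all alternatives run. The other 13 calls with aegs KO ALT and 8 with aegl KO ALT in H292-1 were each lost in at least 1 alternative.

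Of other genes in H292-1, ASNS, CARS1, SLC1A4 and PSPH lay between WT ALT and DPBS with either extract, without overlap, though none passed against DPBS. They are named for this order after their values were seen. How many of all genes show the same order was not counted, so it is not read as particular to them. ASNS had 40.7 and 34.0 CPM with aegs KO ALT and 34.4 and 34.3 CPM with aegl KO ALT, against 25.1 and 29.0 CPM with WT ALT and 49.0 and 48.0 CPM in DPBS (-0.38 ± 0.13, adjusted p 0.9997, and -0.50 ± 0.13, 0.2195, against DPBS). CARS1 had 81.3 and 74.2 CPM with aegs KO ALT and 76.7 and 78.6 CPM with aegl KO ALT, against 59.5 and 60.3 CPM with WT ALT and 97.7 and 95.6 CPM in DPBS (-0.31 ± 0.11 and -0.32 ± 0.11 against DPBS). SLC1A4 (-0.22 ± 0.17 and -0.51 ± 0.17 against DPBS) and PSPH (-0.21 ± 0.13 and -0.44 ± 0.13) were the other two. In H1437-4, SLC7A11 had 312 and 316 CPM with aegs KO ALT and 322 and 305 CPM with aegl KO ALT, below DPBS and above WT ALT, with -0.21 ± 0.05 against DPBS for each (adjusted p 0.08994 and 0.08519).

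Aeg-S and Aeg-L given singly in H1437-2 gave no call among the 36 genes in edgeR (0% of all genes in either direction), with 4 genes at an unadjusted p under 0.05 for Aeg-S and 0 for Aeg-L. SLC38A2 had 375 and 388.5 CPM with Aeg-S, 391 and 263 CPM with Aeg-L, and 298 and 322 CPM in DPBS. The replicates of the single proteins differed widely, as in SLC7A11 with 517 and 674 CPM under Aeg-S, both above DPBS at 426 and 422 CPM, and leaving out 1 library gave up to 4 calls for Aeg-S. No call in so wide a spread does not show that these genes were unaffected. Against the sum of the single effects, the joined proteins gave more CTH (1.44 ± 0.26, adjusted p 0.01102) and more SESN2 (1.52 ± 0.32, 0.02961), while 1.66% of all genes rose and 0.867% fell. SLC38A2 (0.98 ± 0.29, 0.08688) and SLC7A11 (-1.18 ± 0.30, 0.05953) did not pass. The CTH call was lost without either Aeg-S/L replicate (0.08323 and 0.08538) or DPBS replicate 2 (0.08266). The SESN2 call was lost without Aeg-L replicate 1 (0.07572), Aeg-S replicate 2 (0.06515) or any Aeg-S/L or DPBS library (0.06512 to 0.1843).

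The difference between the lines was tested directly, as the effect in NCI-H292 minus that in NCI-H1437, each against its own DPBS. For Aeg-S/L (H292-2 minus H1437-3) 2 of the 36 genes were higher and 14 lower in NCI-H292, where 7.48% of all genes were higher and 6.82% lower. For ALT (H292-1 minus H1437-4) 1 was higher and 9 lower (4.2% and 4.7%). SLC7A11 fell further in NCI-H292, by -1.15 ± 0.10 for Aeg-S/L (adjusted p 8.207e-09) and by -1.47 ± 0.16 for ALT (1.257e-05). ASNS differed by -0.72 ± 0.13 (0.0004941) and -0.99 ± 0.16 (0.0006983), and TARS1 by -0.62 ± 0.12 (0.0037) for ALT. SLC38A2 rose further in NCI-H292 under Aeg-S/L (0.68 ± 0.09, 5.449e-06), while for ALT its difference of 0.24 did not pass.

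SLC1A4 differed by -1.47 ± 0.15 for Aeg-S/L (adjusted p 1.279e-07) and by -0.76 ± 0.19 for ALT (0.02203). The ALT call of SLC1A4 was lost without WT ALT replicate 2 (0.1012), DPBS replicate 1 (0.067) or DPBS replicate 2 (0.1009) of H1437-4, and without DPBS replicate 1 (0.06892), DPBS replicate 2 (0.05014) or WT ALT replicate 1 (0.1496) of H292-1. CARS1 (-0.82 ± 0.11, 5.516e-06), AARS1 (-0.50 ± 0.08, 9.637e-05), MARS1 (-0.40 ± 0.09, 0.002342) and GARS1 (-0.36 ± 0.08, 0.002909) were lower in NCI-H292 for Aeg-S/L. DDIT3, which overlaps MARS1 on the opposite strand, differed by -2.28 ± 0.22 (edgeR adjusted p 8.21e-08). Its part in the MARS1 difference was not tested. VLDLR differed by -1.59 ± 0.43 (0.01424), lost without either Aeg-S/L replicate (0.05902 and 0.06764) or DPBS replicate 1 (0.1731) of H292-2. For Aeg-S/L 10 of 16 calls, and for ALT 3 of 10 (SLC7A11, ASNS and TARS1), held in all alternatives run. Neither difference separates the lines from the experiments in which they were sequenced.

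**Figure D5:**
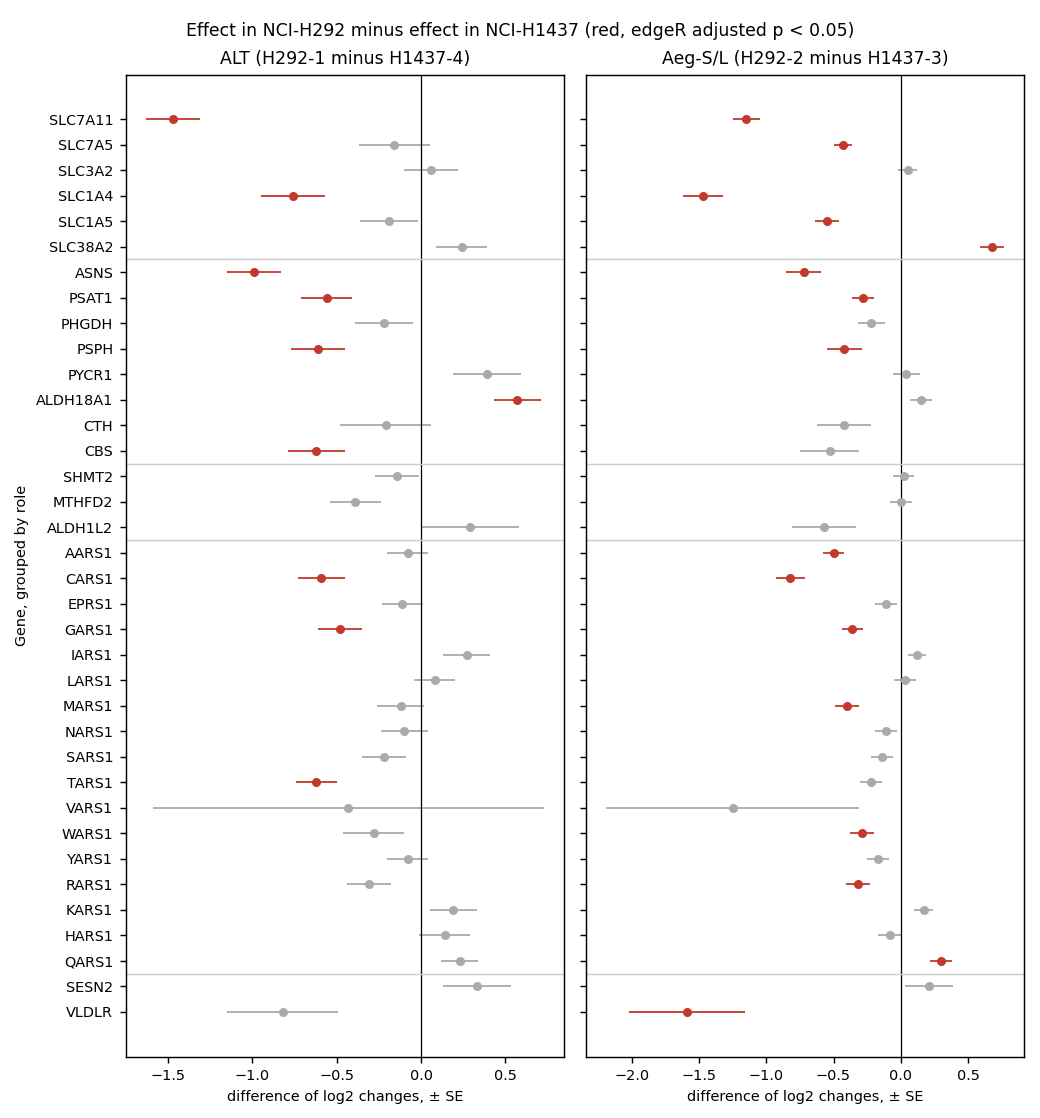
Effect in NCI-H292 minus effect in NCI-H1437 on the log2 scale (points; bars, ± SE) for ALT (left) and Aeg-S/L (right), with red for edgeR adjusted p under 0.05. SLC7A11, SLC1A4 and ASNS lie left of 0 in both panels, and SLC38A2 lies right of 0, past the threshold for Aeg-S/L only.

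Other genes of the pathway were examined at the level of messenger RNA only. These data hold no measure of eIF2alpha phosphorylation or of ATF4 protein. ATF4 messenger RNA, named after its values were seen, rose in 5 of 6 stimulus comparisons, by 1.05 ± 0.05 in H1437-3, 1.08 ± 0.24 in H1437-2, 0.71 ± 0.05 in H1437-4, 0.86 ± 0.05 in H292-2 and 0.52 ± 0.14 in H292-1, and stood at 0.12 ± 0.26 in H1437-1. Of the list of ATF4 regulators and targets, 11 of 18 rose and 2 fell in H1437-3 (15.4% and 15.8% of all genes), and 8 rose and 6 fell in H292-2 (22.1% and 21.1%). ATF3, a stress-induced repressor, averaged 2264 ± 13.5 CPM with Aeg-S/L in H292-2 and 40.2 ± 2.36 CPM in DPBS (SD, n = 2 each; 5.81 ± 0.10). PPP1R15A, the phosphatase subunit that reverses eIF2alpha phosphorylation, averaged 2063.5 ± 37.5 CPM with Aeg-S/L and 95.4 ± 8.59 CPM in DPBS (SD, n = 2 each; 4.43 ± 0.07). Both rose in all 6 comparisons, as did GDF15, and CREBRF rose in 5. DDIT4 and NUPR1 of the same list, named after their values were seen, went the other way and each fell in 4.

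Both ATF3 and PPP1R15A fell with either chelator against Aeg-S/L alone, which in H292-2 gave -6.79 for ATF3 and -5.11 for PPP1R15A with BAPTA-AM, and -3.98 and -2.51 with EGTA. ATF4 messenger RNA fell with both too, with -1.04 for BAPTA-AM and -0.56 for EGTA in H292-2, and -0.92 and -0.61 in H1437-3. DDIT3 instead fell with BAPTA-AM (-2.44 ± 0.16 in H292-2, -3.25 ± 0.15 in H1437-3) and rose with EGTA (2.57 ± 0.13 and 0.88 ± 0.12).

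Among amino acid sensors and stress kinases, SESN1 and SESN3, relatives of SESN2, fell where SESN2 rose. SESN1 fell in 5 of 6 comparisons, by 2.05 ± 0.11 in H292-2 and 2.26 ± 0.14 in H292-1. SESN3 fell in the same 5, by 2.45 ± 0.15 and 2.27 ± 0.18. Of the 6 other cytosolic synthetases and scaffold genes, 3 fell in each of H292-2, H1437-3 and H1437-4 (21.1%, 15.8% and 17.1% of all genes fell), and none rose. Of 16 mitochondrial synthetases tested in H292-2, 5 rose and 4 fell, where 22.1% of all genes rose and 21.1% fell. PARS2, for proline in mitochondria, averaged 2.56 ± 0.398 CPM with Aeg-S/L and 17.9 ± 1.45 CPM in DPBS (SD, n = 2 each; -2.80 ± 0.21), and fell in all 6 comparisons.

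Of other transporters, 2 of 17 rose and 6 fell in H292-2 (22.1% and 21.1% of all genes), and SLC6A6, the taurine carrier, fell by 1.33 ± 0.07. Of other amino acid and one-carbon enzymes, 8 of 28 rose and 12 fell there, against the same shares of all genes. They included GCLC, the catalytic subunit that uses cysteine to make glutathione, which averaged 59.2 ± 1.91 CPM with Aeg-S/L and 205 ± 17.2 CPM in DPBS (SD, n = 2 each; -1.79 ± 0.07). In H1437-3, GCLC fell by 0.49 ± 0.07. MYC, which drives many amino acid genes through E-boxes, averaged 208 ± 0.895 CPM with Aeg-S/L in H292-2 and 40.6 ± 4.06 CPM in DPBS (SD, n = 2 each; 2.36 ± 0.11). It rose by 2.41 ± 0.16 in H292-1, while its changes in NCI-H1437 (0.08 to 0.23) missed the threshold.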

How the data were processed

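The authors deposited tables of gene counts; the 6 human tables were used, with 0 count columns left unused, and the mouse tables were not analysed here. Per the labels' protocols, libraries came from a NEBNext Ultra kit, which leaves strand unmarked, on RNA from TIANGEN columns. HISAT2 2.2.1 (hg19), SAMtools and featureCounts 2.0.2 stand in the submitters' processing notes; the strand setting was not found there. Libraries held 32425310 to 53172930 counts. The series' design text calls replicates biological.

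The counts as deposited were fitted per experiment (edgeR 4.0.16, R 4.3.3): filterByExpr over groups, TMM scaling, 1 coefficient per group over all groups, quasi-likelihood F test, Benjamini-Hochberg adjustment over all tested genes, calls at an adjusted p under 0.05. SE is the absolute log2 change over the square root of F. Line differences came from joint fits. FPKM used the deposited gene lengths. The fits were tested on simulated data. Of 57820 rows, 51996 had a symbol. Among 30 pairs of replicates the chi-square per degree of freedom was at least 3.95, so none was a copy of another.

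Genes were named if, over the 6 stimulus comparisons, they had a called log2 change of at least 1 where the higher group averaged 1 CPM or more, were called in the same direction in at least 5, or were called in opposite directions in the lines; genes of other lists by the size rule, at most 4 a list. Members behind a count are also named, after their values were seen. The genes, lists and tests were chosen with earlier results of these data known. Alternatives were DESeq2 1.42.0, its size factors, no low-count filter, a replicate block, each library left out and, added after seeing the data, fits of the compared groups only and without 2 libraries of H1437-1. Where this left 1 library in a group, it was assumed to vary like the others. Deviations of 77 same-numbered pairs correlated at -0.23 to 0.56, 11 of them over 0.1. In groups of 2 libraries both numbers give the same r, so each such value is counted for both. In H1437-1 all 3 pairs of ALT+Tra with DPBS exceeded 0.1 (0.56, 0.23 and 0.46), so their numbers may pair them. In H292-1, DPBS with aegs KO ALT had 0.42. The values given come from fits without pairing, with the replicate block as an alternative. The SESN2 call of ALT+Tra against DPBS held in it.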

Additional observations from a re-analysis of the deposited data

Results flagged for a closer look

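The effect of Aeg-S/L differed between the lines for 16 of the 36 genes and that of ALT for 10, by the test of the difference itself (edgeR, adjusted over all genes). Among the genes named by rule, the effect in NCI-H292 minus that in NCI-H1437 was -1.47 for SLC7A11 and -0.76 for SLC1A4 under ALT. Under Aeg-S/L it was -1.15 for SLC7A11, -1.47 for SLC1A4, -1.59 for VLDLR, -0.40 for MARS1 and 0.68 for SLC38A2. The part of the overlapping gene DDIT3 in the MARS1 value was not tested. The experiment in which a line was sequenced and the line itself cannot be told apart. No group held the 4 libraries that a test for a single deviating library needs.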

How the results depend on the processing

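No change of the 36 genes reversed its sign at a call in any alternative. The counts below stand without the share of all genes called in the same fit, except where a number is given. They are not read as particular to the 36 genes. Without the low-count filter, the number of the 36 genes called was 1 for ALT (0 with the filter) and 2 for ALT+Tra against DPBS (1) in H1437-1, 2 for Aeg-S/L+Tra against DPBS (1) and 6 for Aeg-S/L against the sum (2) in H1437-2, 2 for either knockout extract against DPBS in H1437-4 (1 each) and 1 for either in H292-1 (0 each). DESeq2 called 1 for ALT and 6 for ALT+Tra against ALT (2), 2 for Aeg-S/L+Tra against DPBS, 4 for Aeg-S/L against the sum, and 2 for either knockout extract against DPBS in H1437-4. In the replicate block fit the counts were 1 for ALT, 3 for Aeg-S/L in H1437-2 (5 without it) and 0 for Aeg-S/L+Tra against DPBS, and no other count moved by over 1.5 times. Fitting only Aeg-S/L and DPBS in H1437-2 called 22 (11 higher, 11 lower), with 7031 of all genes called. Without DPBS replicate 1 and ALT+Tra replicate 3, H1437-1 gave 4 for ALT (2 higher, 2 lower), 4 for ALT+Tra against DPBS and 15 for ALT+Tra against ALT, with the shares of all genes not given here. These last fits were added after seeing the data, and the cause was not tested.

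Leaving out 1 library in turn gave these ranges of called genes. In H1437-1 they were 0 to 1 for ALT, 1 to 1 for ALT+Tra against DPBS and 1 to 4 against ALT. In H1437-2 they were 0 to 4 for Aeg-S, 0 to 0 for Aeg-L, 2 to 4 for Aeg-S/L, 0 to 0 for Aeg-S/L+Tra against DPBS, 0 to 1 against Aeg-S/L and 0 to 14 against the sum. In H1437-3 they were 4 to 8 for Aeg-S/L, 15 to 20 for BAPTA-AM and 5 to 7 for EGTA against DPBS, 9 to 12 and 11 to 15 against Aeg-S/L, and 16 to 22 between chelators. In H1437-4 they were 8 to 14 for WT ALT, 0 to 0 and 0 to 1 for aegs KO and aegl KO against DPBS, and 6 to 18 and 5 to 18 against WT ALT. In H292-1 they were 6 to 12, 0 to 0, 0 to 0, 5 to 16 and 3 to 8 in the same order. In H292-2 they were 20 to 23 for Aeg-S/L, 11 to 14 and 10 to 16 for BAPTA-AM and EGTA against DPBS, 13 to 16 and 21 to 27 against Aeg-S/L, and 17 to 26 between chelators. For the line differences they were 3 to 7 (ALT) and 11 to 14 (Aeg-S/L). Of 936 single-gene values against DPBS under a stimulus with 1 library left out, 59 lost a call and 9 gained one. Most of these values had no call to lose, so the lost calls are a larger share of the values that were called. Low counts limit VARS1, VLDLR and ALDH1L2.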
